A study of Mus musculus with 6 samples.

Results

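Cytosolic ribosomal proteins are the protein part of the ribosomes that translate messages outside mitochondria. The deposited table lists 4233 genes, and 36 of them were taken here by symbol alone: names made of Rpl or Rps and a number, without pseudogene names and without the Rps6k kinases. Of these 36 genes, 22 encode proteins of the large subunit and 14 of the small subunit. They include 35 of the 80 standard names of core ribosomal proteins and Rpl7l1, a paralog of Rpl7. Rack1, a core protein under another kind of name, is described with the related lists. The remaining core names were not analysed here.

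RNA was sequenced from lymphatic endothelial cells of the brain meninges of male C57BL/6J mice at 6 months of age. The cells had been sorted as live single cells without CD45 and with CD31 and podoplanin. The 3 WT libraries came from non-transgenic littermates and the 3 5xFAD libraries from hemizygous 5xFAD mice, which carry transgenes under the neuronal Thy1 promoter and deposit amyloid in the brain. Each library was made from cells pooled over 10 mice. The comparison asks how these cells differ between the genotypes. In bulk RNA, fewer cells of a type and less RNA per cell cannot be told apart.

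Each ribosome holds 1 copy of nearly every ribosomal protein, and cells therefore make these proteins in step with each other and with ribosomal RNA. Much of that coordination acts on translation: the messages of these genes begin with a stretch of pyrimidines, the 5′ terminal oligopyrimidine or TOP sequence, through which TOR signalling and the binding protein Larp1 set how well they are translated. In endothelium, as elsewhere, ribosome supply follows growth signals.

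The TOP stretch is the sequence feature for which this family is known, so start-site windows of 5 members are shown. Each window runs from 20 bases before to 20 bases from the annotated start, on the strand of the gene (RefSeq, GRCm38.p6), with the longest run of C and T in capitals. Rpl7a and Rps6 lie among the best-known members, Rpl35 and Rps27 among those with the largest differences between genotypes, and Rpl27a among those with the widest spread between libraries of 1 genotype. Each of the 5 windows shown holds a run of at least 8 pyrimidines. The windows of Rps2, Rpl22, Rplp0 and Rpl11, which also had large differences between genotypes, hold no such run and are not shown.
Rpl7a: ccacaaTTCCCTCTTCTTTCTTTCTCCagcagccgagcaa
Rpl35: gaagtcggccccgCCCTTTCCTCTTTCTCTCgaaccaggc
Rpl27a: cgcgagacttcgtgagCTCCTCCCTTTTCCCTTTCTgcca
Rps6: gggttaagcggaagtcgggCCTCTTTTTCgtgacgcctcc
Rps27: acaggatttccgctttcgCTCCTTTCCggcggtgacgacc
The windows lie at chr2:26910787-26910826 (plus strand) for Rpl7a, chr2:39005112-39005151 (minus) for Rpl35, chr7:109519175-109519214 (plus) for Rpl27a, chr4:86857348-86857387 (minus) for Rps6 and chr3:90213629-90213668 (minus) for Rps27. A run of at least 8 pyrimidines on the gene's strand was present in 12 of 29 windows of the 27 members in the RefSeq table (41.4%). It was present in 16% of all 32851 windows of that table. The median log2 fold change between genotypes was -0.23 for the 12 members with a run and -0.49 for the 15 without one. A match is a description of the sequence at an annotated start and not of where transcription began in these cells.

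The libraries held 7960827 to 13255050 recovered reads in the listed genes. Other genes are not counted in these totals, so they understate sequencing depth. All 8 lymphatic endothelial markers examined were listed (Prox1, Flt4, Lyve1, Pdpn, Pecam1, Ccl21a, Mmrn1 and Reln), with a summed normalised count of 236762 to 278135 in WT and 215844 to 334276 in 5xFAD. Of markers of other cells, 4 of 6 blood endothelial, 3 of 5 fibroblast, 1 of 4 mural and 1 of 5 neural genes were listed, and 0 of these markers passed the test. Their summed counts were 11818 to 21398 in WT and 15419 to 22629 in 5xFAD for blood endothelium, and 20261 to 35588 and 22369 to 23872 for fibroblasts. The mural gene Pdgfrb was at 502 to 830.4 and 167 to 742. The 5 leukocyte and 2 erythroid names on the marker lists were not analysed here, and 5 other genes of such cells were looked up after the values had been seen. Haemoglobin genes did not pass the test: Hbb-b1 was at 1432, 3319 and 1830 in WT and at 170, 3776 and 1398 in 5xFAD, and Hbb-bt (limma adjusted p = 0.795) was likewise lowest in 5xFAD 1. The leukocyte integrin Itgb2 was lower in 5xFAD (312, 471 and 89.3 in WT; 1.66, 0 and 1.33 in 5xFAD; limma adjusted p = 5.02e-09), as was the T cell gene Cd8a, with 165 reads in WT and 0 in 5xFAD (limma adjusted p = 1.39e-05). The T cell gene Cd3d was at 371, 169 and 395 in WT and 328, 339 and 370.2 in 5xFAD and did not pass (limma adjusted p = 0.952). The part of such cells in the values of the ribosomal protein genes was not tested. The library 5xFAD 3 stands apart, with 147 listed genes without reads against 86 and 87 in the other 5xFAD libraries and 25 to 42 in WT. Counts of fold changes and of limma calls over the family are given with and without it, as are log2 fold changes beyond 1 that it moves by over 1.5 times. Calls by edgeR and DESeq2 are from all 6 libraries only.

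None of the 36 cytosolic ribosomal protein genes taken here passed the limma test between genotypes. Small-subunit genes held both the most positive and the most negative difference among them. All 36 genes had reads in every library and passed the filter on low values. By limma on log2(normalised count + 1), 0 of 36 had a Benjamini-Hochberg adjusted p under 0.05, against 6.36% of all 4152 tested genes (1.88% higher and 4.48% lower in 5xFAD), and adjusted p ran from 0.0741 to 0.993. At an adjusted p under 0.1 there were 2 members, Rps14 and Rps2, against 8.74% of all tested genes. At an unadjusted p under 0.05 there were 5 (1 positive, 4 negative), against 16.3% of all tested genes. The log2 fold changes (5xFAD over WT) ran from -2.74 for Rps2 to 2.57 for Rps14. They were negative for 23 and positive for 13 members, with a median of -0.45. Of all tested genes 50.7% were negative, with a median of -0.02. The standard errors of single members were 0.73 to 1.06. The table holds only genes whose SD of log2 reads stays under 2 within each genotype, a limit that no source used here states, so member counts are compared with all genes under the same limit.

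Groups did not overlap for 9 of the 36 members (25%), against 18.1% of all tested genes. All 3 5xFAD libraries lay above all 3 WT libraries for 2 members, Rps14 and Rps3a1, against 7.97% of all tested genes. They lay below for 7, Rpl11, Rpl22, Rpl7a, Rplp0, Rps2, Rps23 and Rps27, against 10.1% of all tested genes. Differences of over 1 on the log2 scale, in either direction, were seen in 18 members (50%), against 40.4% of all tested genes. Without 5xFAD 3 there were 12 (33.3%), against 40.9%. The 18 were 10 of 14 small-subunit and 8 of 22 large-subunit genes, and the 12 were 6 and 6. The difference between subunits was not tested.

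**Figure D1:**
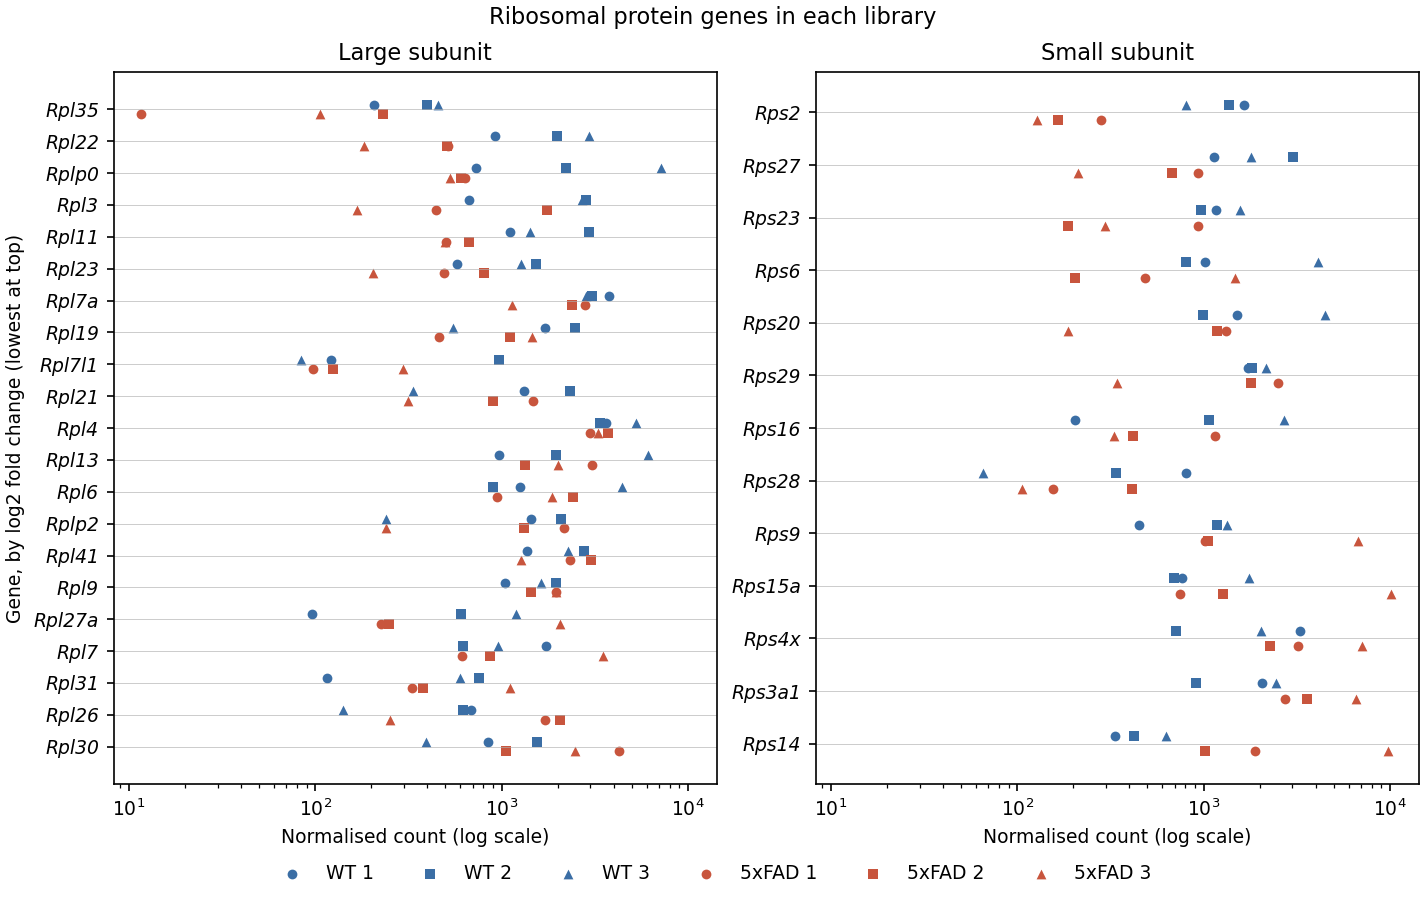
Normalised count (log scale, x axis) of 34 of the 36 ribosomal protein genes in each library, large subunit at left and small subunit at right, blue for WT and red for 5xFAD, with the marker shape giving the replicate number. Points of Rps2 (WT at right, 5xFAD at left) and Rps14 (the reverse) separate by genotype, while most genes overlap and 5xFAD 3 (red triangles) is often the most extreme point.

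**Figure D2:**
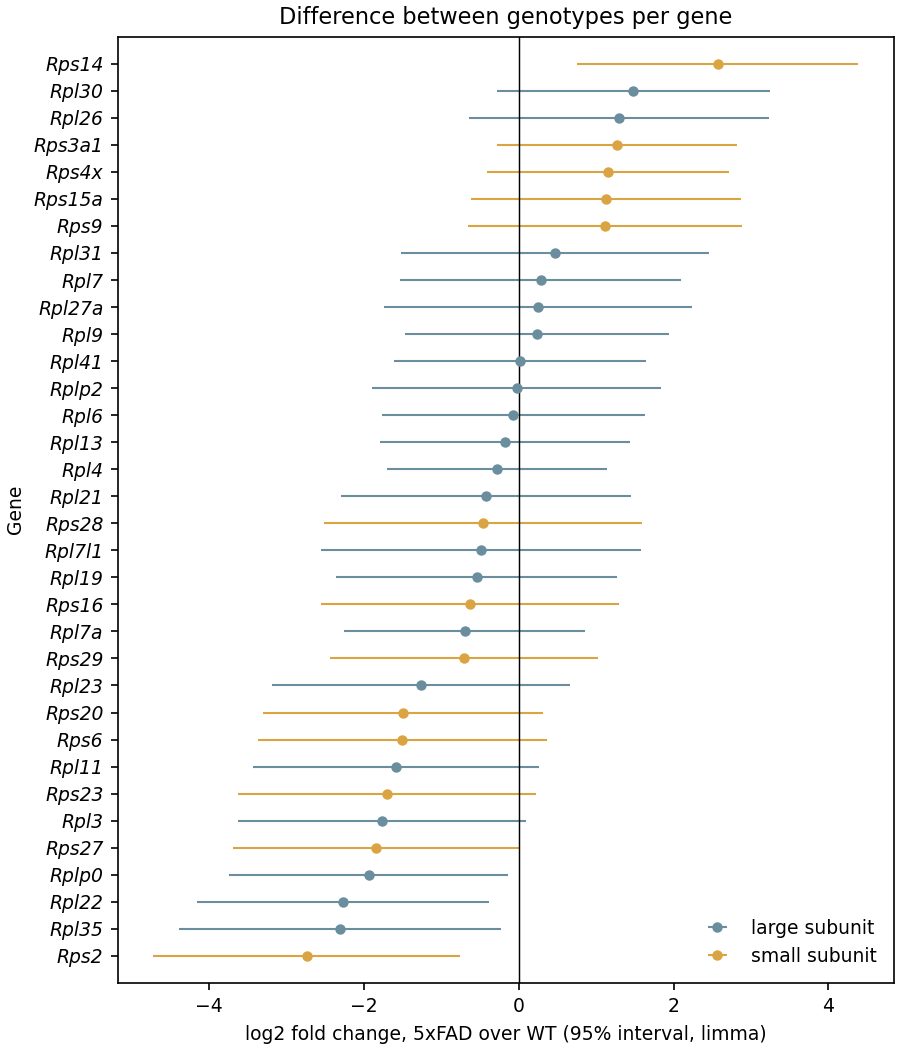
Log2 fold change of 34 of the 36 genes between 5xFAD and WT (points, limma) with its 95% interval (lines), coloured by subunit. The values run from -2.74 (Rps2) to 2.57 (Rps14), and intervals of 29 of the plotted genes include 0.

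Rps14, a protein of the small-subunit platform whose loss of 1 copy underlies the anaemia of the 5q- syndrome, was the member with the most positive difference. Its normalised counts were 336, 421 and 632 in the WT libraries and 1894, 1013 and 9826 in the 5xFAD libraries. Every 5xFAD library lay above every WT library, and 5xFAD 3 lay far above the rest. The log2 fold change was 2.57 (95% interval 0.75 to 4.39; limma adjusted p = 0.0741). Without 5xFAD 3 it was 1.63 (limma adjusted p = 0.522), and without 5xFAD 2 it was 3.27 and passed the test (limma adjusted p = 0.0301). On whole reads recovered from the table it also passed, at 3.13 by edgeR (adjusted p = 0.0136) and 3.19 by DESeq2 (adjusted p = 0.00417). Both count tests used all 6 libraries and were not run without 5xFAD 3. In these count tests edgeR called 1 of 36 members, higher in 5xFAD, against 6.05% of all tested genes (1.93% higher, 4.12% lower). DESeq2 called 4, of which 1 was higher and 3 lower, against 10.3% (3.93% higher, 6.36% lower). At an unadjusted p under 0.05 there were 5 by edgeR, against 16.7%, and 7 by DESeq2, against 20.3%.

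Another 4 small-subunit genes were high in 5xFAD 3. Rps15a was at 766, 696 and 1745 in WT and at 749.8, 1273 and 10185 in 5xFAD. Only 5xFAD 3 lay above the WT range, and the log2 fold change of 1.13 became 0.00 without it (1.88 without 5xFAD 1). Rps9, which lies at the channel through which messenger RNA enters, was at 449.5, 1176 and 1335 in WT and at 1019, 1058 and 6709 in 5xFAD, with a log2 fold change of 1.12 (0.22 without 5xFAD 3, 0.63 without WT 1). The groups overlapped outside that library. Rps4x, encoded on the X chromosome, was at 3285, 713 and 2031 in WT and at 3229.7, 2265 and 7099 in 5xFAD (1.15, with 0.68 without 5xFAD 3 and 0.53 without WT 2). Rps3a1 was at 2054, 916 and 2459 in WT and at 2729, 3606 and 6607 in 5xFAD. It is the other member whose 5xFAD libraries all lay above WT, by a log2 fold change of 1.27 (95% interval -0.28 to 2.82; limma adjusted p = 0.449; 0.91 without 5xFAD 3, 0.84 without WT 2).

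Rps2, which also lines the messenger RNA entry channel, had the most negative difference of the family. It was at 1651, 1366 and 805 in WT and at 282, 167 and 127 in 5xFAD. All 5xFAD libraries lay below all WT libraries, and no single library set this order. The log2 fold change was -2.74 (95% interval -4.72 to -0.76; limma adjusted p = 0.0841; -3.06 to -2.49 with single libraries left out). The gene lies on chromosome 17 at 24718116 to 24721929 (plus strand, GENCODE M21, GRCm38). It passed by DESeq2 (-2.73, adjusted p = 0.00191) and not by edgeR (-2.77, adjusted p = 0.104). Within a library, the ratio of Rps14 to Rps2, a pair picked after their values were seen and free of any scaling between libraries, was 0.204, 0.308 and 0.785 in WT and 6.72, 6.08 and 77.1 in 5xFAD.

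Rps27 and Rps23 also had all 5xFAD values below all WT values. Rps27, a zinc-binding protein, was at 1141, 3036 and 1805 in WT and at 936, 677 and 211 in 5xFAD (log2 fold change -1.85, 95% interval -3.70 to 0.00; limma adjusted p = 0.307; -1.21 without 5xFAD 3). Rps23, which reaches the decoding centre, was at 1174, 975 and 1560.4 in WT and at 931, 187 and 296 in 5xFAD (-1.70; limma adjusted p = 0.403). The gap between groups was narrow for these genes, with 936 against 1141 and 931 against 975 for the nearest libraries. Rps6, the substrate of the S6 kinases, was at 1014, 809 and 4118 in WT and at 485, 205 and 1475 in 5xFAD (-1.50; limma adjusted p = 0.463; -0.78 without WT 3 and -0.83 without 5xFAD 2). Rps20 was at 1519.5, 989 and 4473 in WT and at 1328, 1185 and 188 in 5xFAD (-1.50, with -0.59 without 5xFAD 3 and -0.88 without WT 3). For both genes the WT library 3 was the highest of all and the groups overlapped. The other small-subunit genes, Rps16, Rps28 and Rps29, had log2 fold changes from -0.71 to -0.47 with overlapping groups. Rps29, a zinc-binding protein too, was steady in WT at 1723, 1814 and 2167 and at 2524, 1791 and 342 in 5xFAD, where 5xFAD 3 alone was low. Its log2 fold change was -0.71, and 0.17 without that library.

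**Figure D3:**
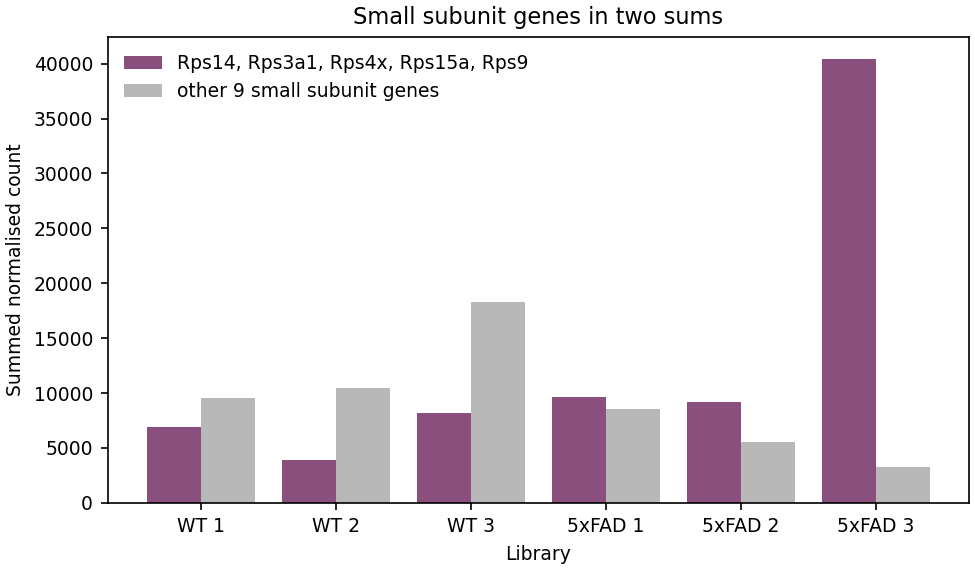
Summed normalised count in each library of the 5 small-subunit genes with the most positive fold changes (purple) and of the other 9 small-subunit genes (grey), a division made after the values were seen. In 5xFAD 3 the 5 genes sum to 40427 and the other 9 to 3268, while in WT the 5 genes sum to less than the other 9 in every library.

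The plot of the small subunit in 2 sums shows how far its genes parted in 1 library. Rps14, Rps3a1, Rps4x, Rps15a and Rps9, chosen because their fold changes were the most positive, made up 41.8%, 27.2% and 31.0% of small-subunit reads in WT and 52.9%, 62.5% and 92.5% in 5xFAD. The other 9 genes summed to 9577, 10499 and 18294 normalised counts in WT and to 8568, 5532 and 3268 in 5xFAD. Library 5xFAD 3 was at once the highest library for 5 small-subunit genes and the lowest for 4. That is a description of genes picked by their values and carries no test.

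In the large subunit, Rpl22 had the clearest separation. This RNA-binding protein, which is known for its role in T cell development, was at 927, 1992 and 2944 in WT and at 518, 509 and 182 in 5xFAD. All 5xFAD values lay below all WT values (log2 fold change -2.27, 95% interval -4.16 to -0.38; limma adjusted p = 0.164). The gene lies on chromosome 4 at 152325742 to 152334071 (plus strand). By DESeq2 it passed (-2.28, adjusted p = 0.0266).

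The stalk proteins recruit elongation factors to the ribosome, and the 2 listed ones behaved differently. Rplp0, the base of the stalk (chromosome 5, 115559467 to 115563727, plus strand), was at 731, 2209 and 7164 in WT and at 633, 605 and 532 in 5xFAD. Its 5xFAD libraries lay close together and just under the lowest WT library, while the WT libraries spread over 9.81-fold. The log2 fold change was -1.94 (95% interval -3.75 to -0.13; limma adjusted p = 0.244), and -1.11 without WT 3. It passed by DESeq2 (-2.51, adjusted p = 0.0271). Rplp2, which forms the tip with its partner Rplp1, was at 1437, 2089 and 239.7 in WT and at 2164, 1323 and 239 in 5xFAD. The same replicate number was low in each genotype, the groups overlapped fully, and the log2 fold change was -0.02 (0.91 without 5xFAD 3, -0.97 without WT 3).

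Rpl11, which with Rpl5 and 5S ribosomal RNA binds the p53 regulator Mdm2, was at 1109, 2957 and 1416 in WT and at 506, 669.9 and 500.2 in 5xFAD. The groups did not overlap (log2 fold change -1.59, 95% interval -3.44 to 0.26; limma adjusted p = 0.421). Rpl35, at the mouth of the exit tunnel through which new proteins leave, was at 206, 398 and 457 in WT and at 11.6, 231 and 106 in 5xFAD. Its log2 fold change of -2.31 (limma adjusted p = 0.221) rested in part on the low value of 5xFAD 1 and was -1.09 without that library. Rpl3, next to the catalytic centre, was at 671, 2851 and 2709 in WT and at 444, 1763 and 167 in 5xFAD (-1.77; limma adjusted p = 0.343; -0.97 without 5xFAD 3 and -2.66 without 5xFAD 2). Rpl23, which can also bind Mdm2, was at 580.2, 1532 and 1266 in WT and at 489, 809.7 and 204 in 5xFAD (-1.26, and -0.72 without 5xFAD 3). Rpl3 and Rpl23 overlapped between genotypes through 5xFAD 2.

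Rpl7a and Rpl4 were the steadiest large-subunit genes in WT. Rpl7a was at 3789, 3048 and 2845 in WT and at 2818, 2394 and 1134 in 5xFAD. Its groups just failed to overlap, at a log2 fold change of -0.70 (95% interval -2.26 to 0.86; limma adjusted p = 0.765), which was -0.30 without 5xFAD 3. Rpl4, which lines the exit tunnel, was at 3641, 3380.1 and 5265 in WT and at 2965, 3713 and 3273 in 5xFAD. It varied by only 1.25-fold among 5xFAD libraries and had a log2 fold change of -0.28 (95% interval -1.71 to 1.14; -0.09 without WT 3).

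Rpl30 and Rpl26 had the most positive differences of the large subunit. Rpl30 was at 849.7, 1553 and 391 in WT and at 4253, 1058 and 2485 in 5xFAD (log2 fold change 1.48; limma adjusted p = 0.437; 0.96 without WT 3). Rpl26, near the exit tunnel, was at 683, 624 and 141 in WT and at 1712, 2059 and 252 in 5xFAD (1.29; limma adjusted p = 0.591; 2.26 without 5xFAD 3, 0.75 without 5xFAD 2 and 0.56 without WT 3). In each of them 1 5xFAD library lay inside the WT range. The other 5xFAD libraries of each gene lay above every WT library.

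Rpl7 and its paralog Rpl7l1 are the single pair of members named as paralogs. Rpl7 was at 1740, 620.2 and 959 in WT and at 615, 866 and 3499 in 5xFAD. Rpl7l1 was at 122, 963 and 84.0 in WT and at 97.0, 124 and 296 in 5xFAD. WT 2 was the lowest WT library for Rpl7 and the highest for Rpl7l1. Their log2 fold changes were 0.28 and -0.49, and each changed sign without WT 2 (-0.07 and 0.59). Without 5xFAD 3 they were -0.47 and -0.96.

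Another 8 large-subunit genes (Rpl6, Rpl9, Rpl13, Rpl19, Rpl21, Rpl27a, Rpl31 and Rpl41) had log2 fold changes from -0.54 to 0.47, and the groups overlapped for each. Without 5xFAD 3 that of Rpl27a was -0.79 and that of Rpl19 -0.89. Rpl27a spread widely within each genotype, 12.4-fold in WT (96.2, 603 and 1193) and 9.15-fold in 5xFAD (225, 249 and 2058). Rpl9 was even, at 1047, 1956 and 1636 in WT and 1953, 1437 and 1956 in 5xFAD. Rpl41, the shortest ribosomal protein, was at 1367, 2758 and 2263 in WT and 2319, 3019.9 and 1267 in 5xFAD.

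Over all 6 libraries, large and small subunit each had a negative median difference between genotypes, and the gap between them was not tested. The median log2 fold change was -0.35 for the 22 large-subunit genes (15 negative, 7 positive) and -0.55 for the 14 small-subunit genes (8 negative, 6 positive). The difference of these medians was 0.19, and it ran from -0.59 to 0.41 when single libraries were left out. Without 5xFAD 3 the large-subunit median was -0.39 (16 of 22 negative) and the small-subunit median -0.02 (7 of 14 negative). Of all genes tested in that fit 50.9% were negative, with a median of -0.03. Large minus small of the median level in each library, with each gene centred on its mean, had a pooled within-genotype SD of 0.66. In mean log2 level, large minus small was -0.31, 0.80 and -0.42 in the WT libraries and -0.47, 0.21 and -0.40 in the 5xFAD libraries. Replicates 1 and 3 of each genotype were negative and replicate 2 positive, and these numbers mark no shared batch in the labels.

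**Figure D4:**
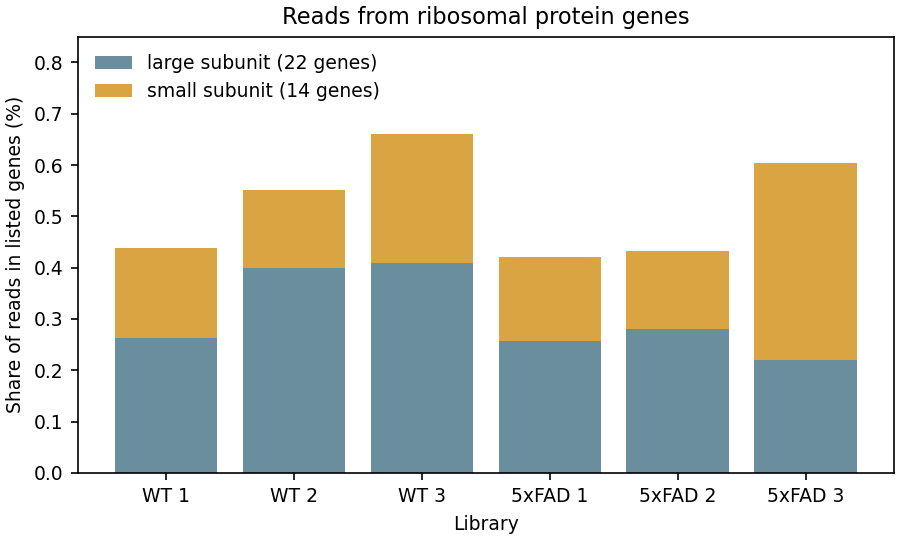
Share of recovered reads in the listed genes (percent, y axis) that came from the 22 large-subunit and 14 small-subunit genes, stacked for each library. The total runs from 0.422% to 0.660%, and 5xFAD 3 is the only library in which the small subunit exceeds the large.

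The 36 genes made up 0.439%, 0.551% and 0.660% of recovered reads in the WT libraries and 0.422%, 0.432% and 0.604% in the 5xFAD libraries, so the ranges overlapped. The large subunit made up 0.262%, 0.40% and 0.409% in WT and 0.256%, 0.279% and 0.220% in 5xFAD. The small subunit made up 0.176%, 0.151% and 0.251% in WT and 0.165%, 0.152% and 0.384% in 5xFAD. These shares cover listed genes only. Malat1, an abundant nuclear RNA, took 3.83% to 4.58% of these reads in WT and 4.62% to 5.96% in 5xFAD, with no overlap, and was called higher in 5xFAD (log2 fold change 0.49; limma adjusted p = 7.3e-06). Its part in the values of the ribosomal protein genes was not tested. Malat1 and mitochondrially encoded genes together took 20.4% to 24.0% in WT and 20.2% to 26.5% in 5xFAD.

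Per kilobase of coding sequence, Rpl41 (28876 normalised counts, mean of 6 libraries), Rps29 (10279) and Rps15a (6588) were the highest members, and Rpl7l1 (381) and Rpl35 (637) were among the 3 lowest. The level of Rps15a rested on 5xFAD 3: over the other 5 libraries it was 2682, rank 14 of 36, while Rpl41 (31273) and Rps29 (11927) stayed the highest. Rpl41 and Rps29 have very short coding sequences, so untranslated bases weigh most in their values.

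Levels of these genes were not held in a fixed proportion between libraries. Over the 36 members, Pearson's r of log2 levels between libraries was 0.42 to 0.52 within WT, 0.48 to 0.73 within 5xFAD and 0.06 to 0.65 across genotypes. Over the pairs without 5xFAD 3 the range across genotypes was 0.39 to 0.65, and the single pair within 5xFAD had 0.73. Over the other 4116 tested genes, with all libraries, r was 0.84 to 0.86, 0.85 to 0.87 and 0.71 to 0.78. The members span a narrower range of mean level (SD 1.15 on the log2 scale, against 2.69), which lowers r, and the spread limit applies within genotypes only, so these values are a description. The SD of log2 reads within a genotype had a median of 0.90 in WT and 1.15 in 5xFAD for members, against 0.96 and 1.08 for all listed genes. It exceeded 1.5 in at least 1 genotype for 14 of 36 members, and for 1645 of all 4233 listed genes. Among members it was highest for Rplp2 at 1.96, close to the limit of 2.

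Across libraries, 5xFAD 3 was the lowest for 13 members and the highest for 8, while it was the lowest for 20.4% and the highest for 22.4% of all tested genes. WT 2 and WT 3 were the highest for 9 and 10 members, and 5xFAD 2 for 2. Without 5xFAD 3, 0 members passed by limma, against 4.83% of all genes tested in that fit, and 4 had an unadjusted p under 0.05 (11.1%, against 14.1%). The median log2 fold change was then -0.27, and 23 members were negative (63.9%, against 50.9%). Groups of 3 and 2 libraries, which separate more readily, did not overlap for 3 members above WT (8.33%, against 12.4%) and 8 below (22.2%, against 15.3%).

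**Figure D5:**
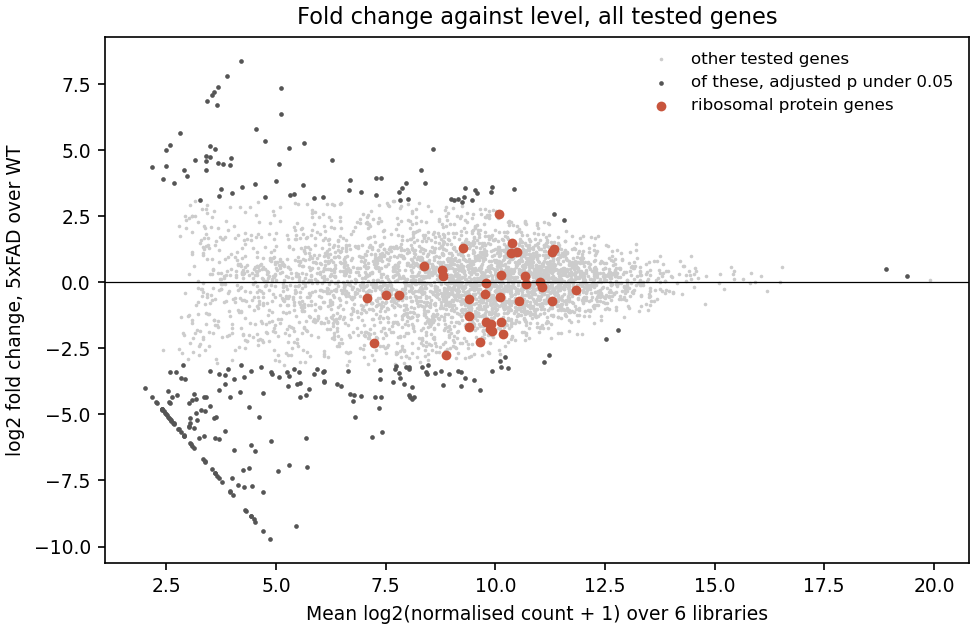
Log2 fold change against mean log2 level over the 6 libraries for all 4152 tested genes (grey; dark where the limma adjusted p is under 0.05), with the 36 ribosomal protein genes in red. The ribosomal protein genes lie between -2.74 and 2.57 and none of them has an adjusted p under 0.05.

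Ribosomal protein genes have many processed pseudogenes, and reads of near-identical copies can be assigned to either. In GENCODE M21, each of the 36 members had at least 1 transcript of another gene that matched at least 80% of its coding sequence at 95% identity or more, with a median of 6 such genes and up to 57 for Rpl21. For 8 members a copy was itself listed, and how reads had been divided was not examined here. Rpl35 shared its coding sequence with Gm2000 (206, 658 and 404 in WT; 478, 359 and 137 in 5xFAD). With that copy added, the log2 difference of Rpl35 went from -2.31 to -0.81. Rps2 went from -2.74 to -2.24 with Rps2-ps10, Rpl11 from -1.59 to -1.73 with Gm10288, and Rps23 from -1.70 to -1.89 with Gm9701 and Gm8624. For Rps2, Rpl11 and Rps23 the difference stayed beyond -1.5 on the log2 scale with these listed copies added. For Rps23 the groups then overlapped, with 5xFAD 1 at 1995 and WT 2 at 1856. Copies that were not listed could not be added: 1 of 26 was listed for Rps2, 1 of 6 for Rpl11 and 2 of 11 for Rps23. Rpl31-ps8, at 869, 902 and 1577 in WT and 1728, 1589 and 945 in 5xFAD, held more reads than Rpl31 itself in 5 of 6 libraries. The sum of Rpl31 and its copy was 985, 1655 and 2178 in WT and 2060.3, 1967 and 2059 in 5xFAD, more even in 5xFAD than Rpl31 alone.

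Genes that act with the ribosome were examined in lists drawn up with earlier results of these data known. Of 8 tested TOP messages outside the Rpl and Rps names, 0 passed by limma, with 5 positive and 3 negative (median log2 fold change 0.20). Eef1a1, the elongation factor that brings transfer RNA, had a WT mean of 9890.1 ± 351 and a 5xFAD mean of 10364 ± 1185 (± SD over 3 libraries). Rack1, a scaffold on the small subunit, was at 1432 ± 1331 and 1499 ± 839. Among 17 initiation factors 1 rose, beside 1.88% of all tested genes: Eif3d, a subunit that can bind the message cap. Its WT values were 20.5, 116 and 303 and its 5xFAD values 800.4, 2013 and 1182, by a log2 fold change of 3.76 (limma adjusted p = 0.00655). Its call was lost by edgeR and without WT 1 or 5xFAD 2 (adjusted p up to 0.189). Of 5 elongation and release factors 0 passed, and of 3 genes of RNA polymerase I 0 passed. Of 7 TOR and Myc regulators 0 passed, among them the S6 kinase Rps6kb1 at 2032 ± 1164 and 1667 ± 918.

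Of the 19 tested genes of ribosome assembly, 3 were lower and 0 higher in 5xFAD, beside the 4.48% of all tested genes that were lower. Nop10, a part of the particles that modify ribosomal RNA, was at 240.0, 68.8 and 22.1 in WT and at 0.829, 0 and 0 in 5xFAD (limma adjusted p = 1.32e-06). Pwp2, of the small-subunit processome, was at 27.1, 185 and 195 in WT and at 7.46, 0 and 0 in 5xFAD (limma adjusted p = 5.83e-06). Riok3, a kinase of small-subunit maturation, was at 1663, 3723 and 4840 in WT and at 450.4, 1136 and 114 in 5xFAD (log2 fold change -3.00; limma adjusted p = 0.0233). The calls of Nop10 and Pwp2 held in each of the 19 other settings. That of Riok3 was lost in 6 of them, among them the fits without WT 2, WT 3 or 5xFAD 3 (adjusted p up to 0.216). The median log2 fold change of the list was -0.13. Of 13 mitochondrial ribosomal proteins 2 fell, Mrps33 (14.8, 239.9 and 44.2 in WT; 0, 2.43 and 0 in 5xFAD; limma adjusted p = 3.11e-05) and Mrpl11 (736, 244 and 56.6 in WT; 7.46, 97.3 and 9.29 in 5xFAD; limma adjusted p = 0.0262). Mrpl11 was lost in 6 of 19 settings, among them the fits without WT 1, WT 2, 5xFAD 1 or 5xFAD 3 (adjusted p up to 0.282).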

How the data were processed

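The RNA came through the PicoPure kit and a linear amplification, per the labels' protocols. The deposited signal is gene counts that the authors had scaled by a single size factor for each library. The submitters' processing notes list mm10 as the build and FastQC, Trimmomatic, Salmon and DESeq2 as tools, whose versions and settings are not given in the sources used here. In each column 100% of values were whole multiples of the smallest value above 0 (within 1e-06), so whole reads could be recovered from these deposited values. Intervals rest on the spread between libraries over all genes of like level, not only on counting error. They do not reflect the spread of the single gene's own replicates.

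Genes with a mean normalised count of at least 10 (4152 of 4233) were fitted on log2(value + 1) with limma 3.58.1 in R 4.3.3, with the prior variance following the mean level, and p-values were adjusted over all tested genes by the Benjamini-Hochberg method. The estimated prior degrees of freedom were infinite: each SE follows the trend over all genes and ignores how far that gene's own replicates spread. Fold changes on this scale are understated where levels are low. A call was an adjusted p under 0.05, two-sided. edgeR 4.0.16 (quasi-likelihood) and DESeq2 1.42.0 were run on recovered reads as alternatives, beside voom and other pseudocounts, filters, scalings, priors, left-out libraries and a replicate block. The fit was tested on simulated data, which were not held to the spread limit of the listed genes. It recovered 8.96% of genes changed 4-fold, 80.6% of those changed 16-fold and 95.45% of those changed 64-fold. Of the unchanged genes it called 0.102%. Coding lengths and positions are from GENCODE M21 (GRCm38), copies were found with blastn, and start-site windows are from RefSeq (GRCm38.p6), which held 27 of the 36 members.

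The members, the lists and the tests were chosen with earlier results of these data known. Of the members, 2 are counted but not reported singly here, and some genes of the lists are not reported here. Values in each library are given for members called by any tool, the 3 with the largest fold change in each direction, up to 4 with separate groups in each direction, the most and least abundant per length, paralogs and stalk proteins, and for called genes of the lists. The others shown were added after their values were seen (Rpl3, Rpl4, Rpl7a, Rpl9, Rpl11, Rpl23, Rpl27a, Rps4x, Rps6, Rps9, Rps20 and Rps23, and the copies).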

Additional observations from a re-analysis of the deposited data

How the results depend on the processing

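By limma 0 members were called higher and 0 lower. An adjusted p under 0.1, which is the looser cutoff, gave 1 and 1. On recovered reads the counts were 1 and 0 by edgeR and 1 and 3 by DESeq2, and what sets the tools apart was not tested. Leaving out single libraries gave 0 to 1 members higher (1 without 5xFAD 2) and 0 to 0 lower. Among the 4131 to 4147 genes tested in those fits, 54 to 85 were higher and 143 to 192 lower (85 and 192 of 4139 without 5xFAD 2). Over the same fits the median log2 fold change of members ran from -0.69 (without WT 3) to -0.27. Large minus small subunit medians ran from -0.59 (without WT 3) to 0.41. In the other settings 0 members were higher and 0 lower, against 49 to 120 and 116 to 202 of the 3698 to 4233 genes tested. The share of member reads became 0.707% (WT mean, from 0.550%) and 0.639% (5xFAD mean, from 0.486%) without Malat1 and mitochondrially encoded genes, by the smaller total alone. With the replicate block there were 0 and 0 calls, with a median of -0.45, and same-numbered libraries did not deviate together over all tested genes (correlations 0.00247, -0.0157 and -0.0126).

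Of 646 values of 34 members in 19 settings, 28 changed sign, in 13 members, none of them called. Scaling to the same total, which put the median of all genes at -0.14 instead of -0.02, gave -0.10 for Rpl41, and TMM gave -0.0261. Library weights gave 0.0213 for Rpl13, 0.0639 for Rpl6 and 0.00732 for Rplp2. The other changes came from leaving out 1 library: without WT 1 for Rpl27a, Rpl31, Rpl41, Rpl9, Rplp2 and Rps28, without WT 2 for Rpl21, Rpl7, Rpl7l1 and Rplp2, without WT 3 for Rpl13, Rpl6 and Rps16, without 5xFAD 1 for Rpl41 and Rpl6, without 5xFAD 2 for Rpl13 and Rpl41, and without 5xFAD 3 for Rpl21, Rpl27a, Rpl31, Rpl7, Rplp2 and Rps29. Over single libraries left out, the log2 fold change ran from -0.79 to 0.54 for Rpl13, -1.22 to 0.20 for Rpl21, -0.80 to 1.01 for Rpl27a, -0.37 to 0.98 for Rpl31, -0.27 to 0.37 for Rpl41, -0.53 to 0.62 for Rpl6 and -0.47 to 0.78 for Rpl7. It ran from -1.16 to 0.59 for Rpl7l1, -0.0202 to 0.43 for Rpl9, -0.97 to 0.91 for Rplp2, -1.65 to 0.22 for Rps16, -1.46 to 0.34 for Rps28 and -1.27 to 0.17 for Rps29. With 3 libraries a group, the SEs of 0.73 to 1.06 limit what can be seen.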
